A study of Rattus norvegicus with 10 samples.

Results

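The 38 genes described here were listed as glucocorticoid-induced genes, 7 of them because they were called 2 h after footshock (FS) and 1 of these, Slc16a4, was lower there. They were measured in the rat prefrontal cortex (PFC) 24 h after the beginning of an acute FS session. The FS rats (n = 5) received a 40 min session at 0.8 mA with 20 min of actual shock, went back to their home cages and were killed 24 h after its start, and the control rats (n = 5) stayed caged without any session. All were adult male Sprague–Dawley rats, and PFC RNA of each was hybridized to 1 Affymetrix Rat Gene 1.0 ST array. The list was written down by gene symbol, and a gene was followed where a probe set carried its symbol alone, which held for 34 of the 38 genes. All 34 passed the filter, a mean log2 value above 4 over the 10 arrays, and they belong to 16941 genes tested. Where a gene had several probe sets, the one with the highest mean stood for it. Pnmt and Arl4d had no probe set in the annotation used, and Mt2A and Lyz2 shared theirs with other genes, so no value is given for these 4. Values are log2 RMA values, and each log2 fold change is the FS mean minus the control mean.

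In stress, the adrenal gland releases corticosterone, the main glucocorticoid of the rat, which enters the brain and binds the glucocorticoid receptor (Nr3c1) and the mineralocorticoid receptor (Nr3c2). The bound receptors move to the nucleus and act on genes through glucocorticoid response elements, a palindrome whose arms are spaced by 3 bases, or through other factors. Products of the induced genes then restrain inflammatory signalling, shift cells from glucose to fat use and slow growth. In the brain many of them are expressed in glia and vessels as well as in neurons, and RNA of dissected PFC cannot tell fewer cells of a type from less RNA per cell. The genes called at 2 h, in other rats, were Slc16a4 and, higher after FS, Sgk1, Tsc22d3, Pdk4, Gpd1, Slc19a3 and Hif3a. Those rats are not analysed here.

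The arrays were alike in level, and 1 rat stood apart in its choroid plexus, meningeal fibroblast and blood markers. Striatal medium spiny neuron markers, given below, varied widely between rats in both groups. The medians of the arrays over all probe sets tested lay between 7.82 and 7.85 in FS rats and between 7.83 and 7.87 in controls. PFC glutamatergic neuron markers (6 of 7 tested) averaged between 12.30 and 12.42 in each FS rat and between 12.31 and 12.41 in each control. In FS replicate 2, choroid plexus markers (8 of 8 tested) had a mean level of 8.91, against 6.59 to 7.04 in the other FS rats and 6.49 to 6.79 in controls. Meningeal fibroblast markers (11 of 11 tested) were at 9.08 in that rat, against 7.84 to 8.20 in the other FS rats and 8.18 to 8.42 in controls, and blood markers (5 of 7 tested) at 8.02, against 7.36 to 7.57 and 7.45 to 7.64. The log2 fold change of each of the 34 genes without this rat is drawn in the plot of fold changes with and without FS replicate 2.

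One day after FS, the glucocorticoid-induced genes differed little between FS rats and controls. None of the 34 genes passed an adjusted p of 0.05 in limma, where 0% of all genes tested did, and the smallest adjusted p among them was 0.455. At an unadjusted p under 0.05, 2 of the 34 genes were higher in FS rats and 0 were lower, against 9.93% of all genes tested (5.84% higher and 4.08% lower). The log2 fold change was positive for 21 genes and negative for 13 (61.8% positive, against 50.5% of all genes). Its median was 0.013, against 0.00070 over all genes, and the median of its absolute size was 0.040, against 0.047. The absolute log2 fold change was over 0.1 for 6 of the 34 genes (17.6%), against 18.2% of all genes. In none of the 34 genes did the 5 FS rats lie apart from the 5 controls, which they did in 1.95% of all genes. The 95% interval of the difference lay within 0.5 of zero on the log2 scale for 33 of the 34 genes and within 0.3 for 32. The exception to the first bound was Dusp1, with an upper bound of 0.55, and Sult1a1 reached 0.47. All 34 estimates and intervals are drawn by functional group in the plot of fold changes.

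**Figure D1:**
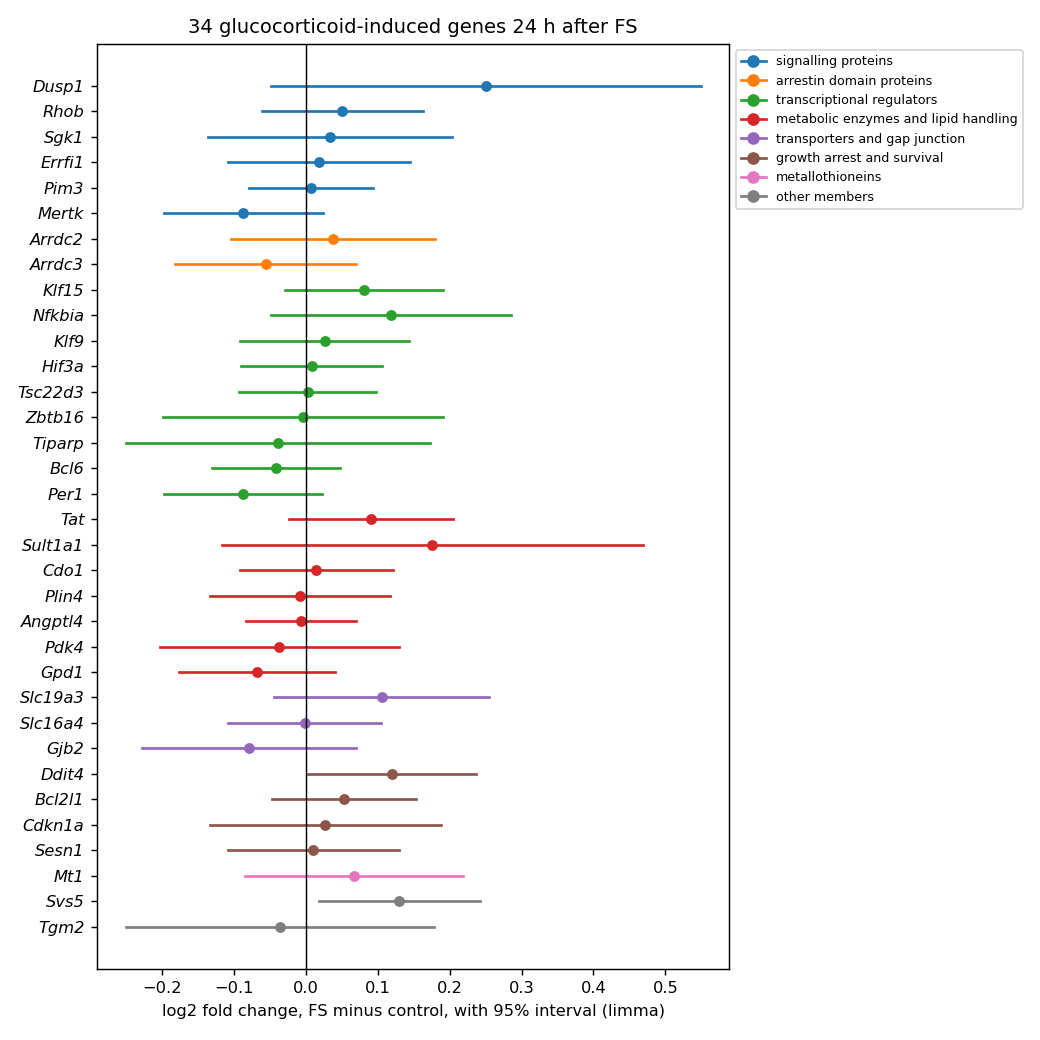
Log2 fold change (FS minus control, x axis) of each of the 34 genes, 1 per line, with its 95% interval from limma, coloured by functional group (n = 5 rats each). The intervals of Svs5 and Ddit4 lie just above zero, those of the other 32 genes include zero, and none of the 34 genes passed the adjusted threshold.

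The promoters of the genes were searched for response elements in the 250 bases before and 50 bases after the start, in RefSeq sequences of GRCr8, which held 33 of the 38 genes. The glucocorticoid response element was searched as GNACA and TGTNC with any 3 bases between them, which reads the same on both strands, and was in 0 of the 33 promoters, against 0.422% of all 27457 promoters. A single arm of it, AGAACA on either strand, was in 4 of 33 (12.1%, against 20.1% of all). The cyclic AMP response element TGACGTCA was in 2 of 33 (6.06%, against 1.91%), those of Dusp1 and Arl4d. The core of the metal response element, searched as TGCACNC and TGCGCNC on either strand, was in 8 of 33 for each form (24.2%, against 12.2% and 15.0%), and both forms were in Mt1 and Mt2A. A match is a stretch of letters, not a site shown to be bound, and elements farther from the start were not searched. Shown here are the 250 bases before the start of Dusp1 and Sult1a1, whose log2 fold changes were the largest of the 34, and of Mt1, which had the most matches. Capitals mark the cyclic AMP response element in Dusp1 (chr10:17184603-17184852, plus strand), the single arm AGAACA in Sult1a1 (chr1:190706113-190706362, minus strand) and the 6 metal response element cores in Mt1 (chr19:10832976-10833225, minus strand).
Dusp1: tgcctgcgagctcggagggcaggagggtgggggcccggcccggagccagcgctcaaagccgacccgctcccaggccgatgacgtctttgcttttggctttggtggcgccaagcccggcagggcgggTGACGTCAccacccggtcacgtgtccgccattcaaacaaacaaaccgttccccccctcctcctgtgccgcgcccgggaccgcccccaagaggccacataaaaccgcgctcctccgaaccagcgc
Sult1a1: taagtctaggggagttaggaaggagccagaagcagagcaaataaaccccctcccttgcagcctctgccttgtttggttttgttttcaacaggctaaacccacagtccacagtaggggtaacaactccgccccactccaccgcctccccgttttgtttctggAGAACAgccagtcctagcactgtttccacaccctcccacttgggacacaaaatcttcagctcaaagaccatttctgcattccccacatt
Mt1: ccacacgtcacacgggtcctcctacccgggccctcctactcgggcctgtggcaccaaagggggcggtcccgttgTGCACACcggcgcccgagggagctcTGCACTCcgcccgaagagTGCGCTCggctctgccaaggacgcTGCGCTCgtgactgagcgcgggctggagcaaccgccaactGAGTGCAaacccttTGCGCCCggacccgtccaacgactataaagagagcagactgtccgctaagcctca

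The genes called at 2 h had small differences at 24 h, and their rats overlapped. Sgk1 encodes a serum- and glucocorticoid-regulated kinase that controls ion channels and transporters. It was at 9.69, 10.12, 9.67, 9.71 and 9.84 in FS replicates 1 to 5, against 9.70, 9.75, 9.77, 9.89 and 9.76 in control replicates 1 to 5. FS replicate 2 was above every other rat, and FS replicates 1 and 3 were below every control. The log2 fold change was 0.034 (95% interval -0.14 to 0.20, adjusted p = 0.907 in limma) and, without FS replicate 2, -0.045 (adjusted p = 0.802 in limma). The SD was 0.19 among FS rats and 0.069 among controls.

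Tsc22d3 encodes the glucocorticoid-induced leucine zipper, an inhibitor of inflammatory transcription factors. It was at 7.64, 7.71, 7.68, 7.61 and 7.61 in FS rats, against 7.58, 7.74, 7.57, 7.71 and 7.65 in controls. The FS rats lay inside the range of the controls, with a log2 fold change of 0.0026 (95% interval -0.092 to 0.097). Hif3a, an oxygen-regulated transcription factor that tempers the other hypoxia-inducible factors, was at 6.82, 6.80, 6.87, 6.83 and 6.92 in FS rats, against 6.86, 6.76, 6.82, 6.80 and 6.97 in controls. Its log2 fold change was 0.0082 (95% interval -0.090 to 0.11), and its FS rats again lay inside the range of the controls. Both genes turned to a negative value after quantile normalization and with each array centred on its median.

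Pdk4 encodes a kinase that switches off pyruvate dehydrogenase and so spares glucose. It was at 7.32, 7.48, 7.36, 7.35 and 7.22 in FS rats, against 7.35, 7.57, 7.12, 7.49 and 7.38 in controls. The controls spread more widely than the FS rats, and the log2 fold change was -0.037 (95% interval -0.20 to 0.13). Gpd1 encodes a glycerol-3-phosphate dehydrogenase that links glycolysis to lipid synthesis. It was at 8.78, 8.88, 8.81, 8.93 and 8.88 in FS rats, against 8.89, 9.07, 8.82, 8.91 and 8.93 in controls. In Gpd1, 1 of 5 FS rats was above the mean of the controls, and the log2 fold change was -0.068 (95% interval -0.18 to 0.040, adjusted p = 0.662 in limma). It was -0.031 without control replicate 2, the highest rat.

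Among the transporters, Slc19a3 brings thiamine into cells. It was at 7.67, 7.85, 7.58, 7.62 and 7.49 in FS rats, against 7.42, 7.60, 7.50, 7.47 and 7.69 in controls. FS replicate 2 was the highest rat and control replicate 5 the next, so the groups overlapped. Its log2 fold change, 0.11 (95% interval -0.044 to 0.26, adjusted p = 0.624 in limma), had the largest absolute size of the genes called at 2 h and was 0.054 without FS replicate 2. Slc16a4, a member of the monocarboxylate transporter family, was at 6.73, 6.76, 6.67, 6.51 and 6.59 in FS rats, against 6.61, 6.63, 6.63, 6.71 and 6.67 in controls. The FS rats lay on both sides of the controls, with an SD of 0.10 against 0.038 and a log2 fold change of -0.0013 (95% interval -0.11 to 0.11). Set beside the direction at 2 h, the sign at 24 h was the same for Sgk1, Tsc22d3, Slc19a3, Hif3a and Slc16a4 and opposite for Pdk4 and Gpd1, but each of the 7 intervals includes zero. The signs for Sgk1, Tsc22d3, Hif3a, Slc16a4 and Pdk4 each turned when 1 rat was left out.

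**Figure D2:**
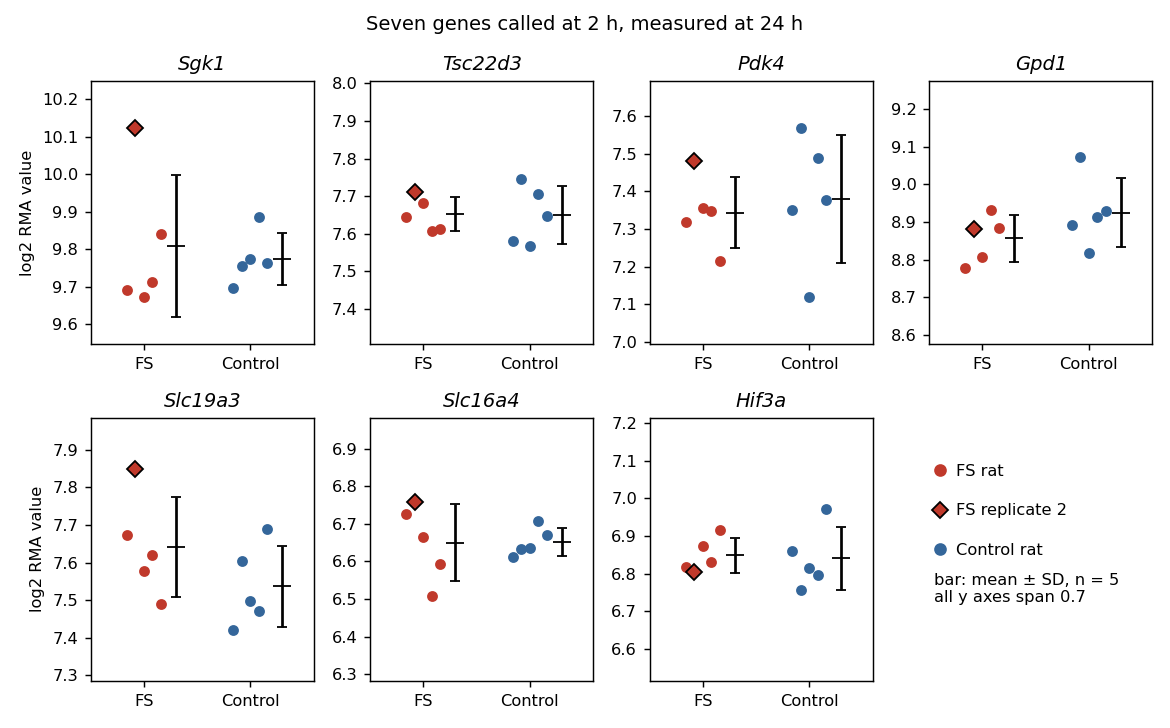
Log2 RMA value of the 7 genes called at 2 h in each FS rat (left) and each control (right) at 24 h, with the mean and SD of each group as a bar (n = 5 each). In Sgk1 and Slc19a3, FS replicate 2 (diamond) is above every other rat, and in all 7 genes the groups overlap.

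The largest log2 fold change among the 34 genes was that of Dusp1, a phosphatase that switches off mitogen-activated protein kinases and has the cyclic AMP response element printed above in its promoter. Dusp1 was at 10.02, 10.34, 9.94, 9.98 and 9.46 in FS rats, against 9.74, 10.01, 9.51, 9.61 and 9.60 in controls. In FS rats it spanned the whole range, since FS replicate 2 was the highest and FS replicate 5 the lowest of the 10 rats, and 4 of 5 FS rats were above the mean of the controls. The log2 fold change was 0.25 (standard error 0.14, 95% interval -0.048 to 0.55, adjusted p = 0.559 in limma), and it was 0.15 without FS replicate 2 and 0.37 without FS replicate 5. Of the other signalling proteins, Mertk, a receptor tyrosine kinase with which glia and macrophages take up dying cells, was at 8.32, 8.28, 8.22, 8.33 and 8.50 in FS rats, against 8.35, 8.43, 8.46, 8.40 and 8.46 in controls. Here 4 of 5 FS rats were below every control and FS replicate 5 was above them all, with a log2 fold change of -0.086 (95% interval -0.20 to 0.024, adjusted p = 0.585 in limma). Errfi1, a feedback inhibitor of epidermal growth factor receptors, Rhob, a small GTPase, and Pim3, a serine/threonine kinase, had log2 fold changes of 0.019, 0.051 and 0.0075. That of Errfi1 was -0.034 without FS replicate 2, which was its highest rat.

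The arrestin domain proteins Arrdc2 and Arrdc3 are relatives of the arrestins, and Arrdc3 sorts membrane receptors. Arrdc3 was at 9.11, 8.99, 8.96, 8.95 and 8.94 in FS rats, against 9.09, 9.23, 8.94, 9.02 and 8.95 in controls, with a log2 fold change of -0.056 (95% interval -0.18 to 0.070). Control replicate 2 was the highest rat, and the log2 fold change was -0.0091 without it. Arrdc2 had a log2 fold change of 0.038.

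Of 9 transcriptional regulators, 5 had a positive and 4 a negative log2 fold change, and 0 had an unadjusted p under 0.05 in limma. Klf15, a zinc finger factor of amino acid and lipid metabolism, was at 6.92, 7.04, 7.0, 7.03 and 6.94 in FS rats, against 6.80, 6.80, 6.99, 6.92 and 7.0 in controls. All 5 FS rats were above the mean of the controls but overlapped with control replicates 3, 4 and 5, and the log2 fold change was 0.081 (95% interval -0.029 to 0.19, adjusted p = 0.606 in limma). Nfkbia, which encodes the inhibitor that holds NF-kB in the cytoplasm, was at 7.97, 8.43, 8.04, 8.04 and 8.13 in FS rats, against 7.92, 7.99, 8.01, 8.11 and 7.99 in controls. FS replicate 2 stood apart, and the log2 fold change was 0.12 with it (95% interval -0.048 to 0.29, adjusted p = 0.621 in limma) and 0.041 without it.

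Per1, a repressor of the circadian clock that glucocorticoids also induce, was at 8.90, 8.91, 8.83, 8.80 and 9.0 in FS rats, against 9.01, 9.09, 8.89, 8.89 and 8.99 in controls. In Per1, which had the lowest moderated t of the 34 genes, 1 of 5 FS rats was above the mean of the controls, and the log2 fold change was -0.088 (95% interval -0.20 to 0.022, adjusted p = 0.579 in limma). Bcl6, a transcriptional repressor of lymphocyte genes, was at 8.12, 8.06, 8.09, 8.00 and 8.10 in FS rats, against 8.12, 8.14, 8.02, 8.10 and 8.20 in controls, a difference of -0.042 (95% interval -0.13 to 0.047). Klf9, a zinc finger factor of neuronal maturation, Zbtb16, a zinc finger repressor, and Tiparp, an ADP-ribosyltransferase that restrains the aryl hydrocarbon receptor, had log2 fold changes of 0.026, -0.0037 and -0.039. The other probe set of Klf9 gave 0.058. Zbtb16 varied widely within the groups, with an SD of 0.20 in FS rats and 0.12 in controls.

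Of 7 metabolic enzymes and lipid-handling proteins, 3 had a positive and 4 a negative log2 fold change, none with an unadjusted p under 0.05 in limma. Sult1a1, a sulfotransferase of phenols, was at 8.18, 8.72, 8.18, 7.97 and 8.48 in FS rats, against 7.99, 8.44, 8.09, 7.91 and 8.23 in controls. The spread within each group was wide, and the log2 fold change was 0.18 (95% interval -0.12 to 0.47, adjusted p = 0.678 in limma), or 0.072 without FS replicate 2. Tat, the liver enzyme tyrosine aminotransferase and a classical glucocorticoid target there, lay near the filter at 4.65, 4.74, 4.81, 4.72 and 4.77 in FS rats, against 4.78, 4.65, 4.48, 4.65 and 4.67 in controls. Its log2 fold change was 0.091 (95% interval -0.024 to 0.20). Cdo1, a cysteine dioxygenase, Angptl4, an inhibitor of lipoprotein lipase, and Plin4, a coat protein of lipid droplets, had log2 fold changes of 0.015, -0.0068 and -0.0079.

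All 4 genes of growth arrest and survival had positive log2 fold changes, and 1 had an unadjusted p under 0.05 in limma. Ddit4, an inhibitor of the growth kinase mTORC1, was at 8.57, 8.69, 8.53, 8.53 and 8.38 in FS rats, against 8.45, 8.45, 8.41, 8.48 and 8.32 in controls. In Ddit4, 4 of 5 FS rats were above every control, FS replicate 5 was below 4 of them, and the log2 fold change was 0.12 (standard error 0.053, 95% interval 0.0035 to 0.24, unadjusted p = 0.0445 and adjusted p = 0.502 in limma). Without FS replicate 2 it was 0.083 and without FS replicate 5 it was 0.16. Bcl2l1, which encodes the survival protein Bcl-xL, Cdkn1a, the cell cycle inhibitor p21, and Sesn1, a sestrin that restrains mTORC1, had log2 fold changes of 0.053, 0.027 and 0.011. Those of Cdkn1a and Sesn1 did not keep their sign, since Cdkn1a was -0.0097 without control replicate 4 and Sesn1 -0.025 without control replicate 5, and Sesn1 was also negative with centred arrays and with array weights. The other probe set of Bcl2l1 gave 0.0062.

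Of the remaining genes, Svs5, a secretory protein of the seminal vesicle, had the smallest p of the 34. It was at 5.39, 5.27, 5.24, 5.36 and 5.24 in FS rats, against 5.19, 5.10, 5.07, 5.16 and 5.31 in controls. This level is low, with only 7.44% of all genes tested at or below it. All FS rats were above 4 of the controls, control replicate 5 overlapped with them, and the log2 fold change was 0.13 (standard error 0.051, 95% interval 0.018 to 0.24, unadjusted p = 0.0263 and adjusted p = 0.455 in limma). Without control replicate 5 the adjusted p was 0.178, the smallest of any of the 34 genes under the alternatives tried. The metallothionein Mt1, which binds zinc and copper and whose promoter with its metal response element cores is printed above, was at 9.65, 9.79, 9.71, 9.76 and 9.94 in FS rats, against 9.50, 9.72, 9.87, 9.66 and 9.75 in controls. Its groups overlapped, with a log2 fold change of 0.067 (95% interval -0.084 to 0.22), and its other probe set gave 0.038. It was 0.018 without control replicate 1 and 0.11 without control replicate 3. Gjb2, which encodes a connexin of astrocytes and meningeal cells, was at 7.06, 7.24, 6.83, 6.98 and 7.07 in FS rats, against 7.11, 7.09, 7.04, 7.25 and 7.09 in controls. Its log2 fold change was -0.079 (95% interval -0.23 to 0.069), with -0.13 without FS replicate 2 and -0.027 without FS replicate 3. Tgm2, a protein-crosslinking transglutaminase, had a log2 fold change of -0.036.

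FS replicate 2 was the highest rat in more of these genes than any other rat. It was the highest of the 10 rats in 9 of the 34 genes (26.5%), against 9.57% of all genes tested. It was the lowest in 1 of the 34, against 13.2% of all genes tested. The 9 genes were Dusp1, Sult1a1, Nfkbia, Sgk1, Slc19a3, Errfi1, Ddit4, Slc16a4 and Klf15. This rat exceeded the mean of the other 9 rats by 0.57 in Dusp1, 0.56 in Sult1a1, 0.41 in Nfkbia and 0.37 in Sgk1. The gene in which it was lowest was Zbtb16, at 9.38, while the remaining 9 rats averaged 9.66. Tsc22d3 was at 7.71 in this rat, the highest of the FS rats but below control replicate 2, and at 7.64 in the mean of the others. Gpd1 was at 8.88 in this rat and 8.89 in the mean of the others, and Per1 at 8.91 and 8.94. The mean of the 34 genes, centred over the rats, was 0.086 in FS replicate 2, between -0.015 and 0.00085 in the other FS rats, and between -0.064 and 0.028 in controls. Leaving this rat out turned Zbtb16 to 0.060 and moved Pdk4 to -0.071, Tiparp to -0.091 and Tgm2 to -0.083. Without it, the median log2 fold change of the genes was 0.0033, and 1 gene had an unadjusted p under 0.05 in limma. The means of the choroid plexus, meningeal fibroblast and blood markers given above were highest in the same rat. Of the blood markers, Ppbp was highest in FS replicate 4 and Pf4 in FS replicate 5. The mean of the endothelial markers (7 of 8 tested) was highest there too, at 8.58, against 8.38 to 8.46 in the other FS rats and 8.46 to 8.55 in controls. By gene, Cldn5 and Vwf were highest in this rat, while Flt1, Cdh5, Tek, Slco1a4 and Esam were each highest in a control. The part of these 4 lists in these values was not tested.

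**Figure D3:**
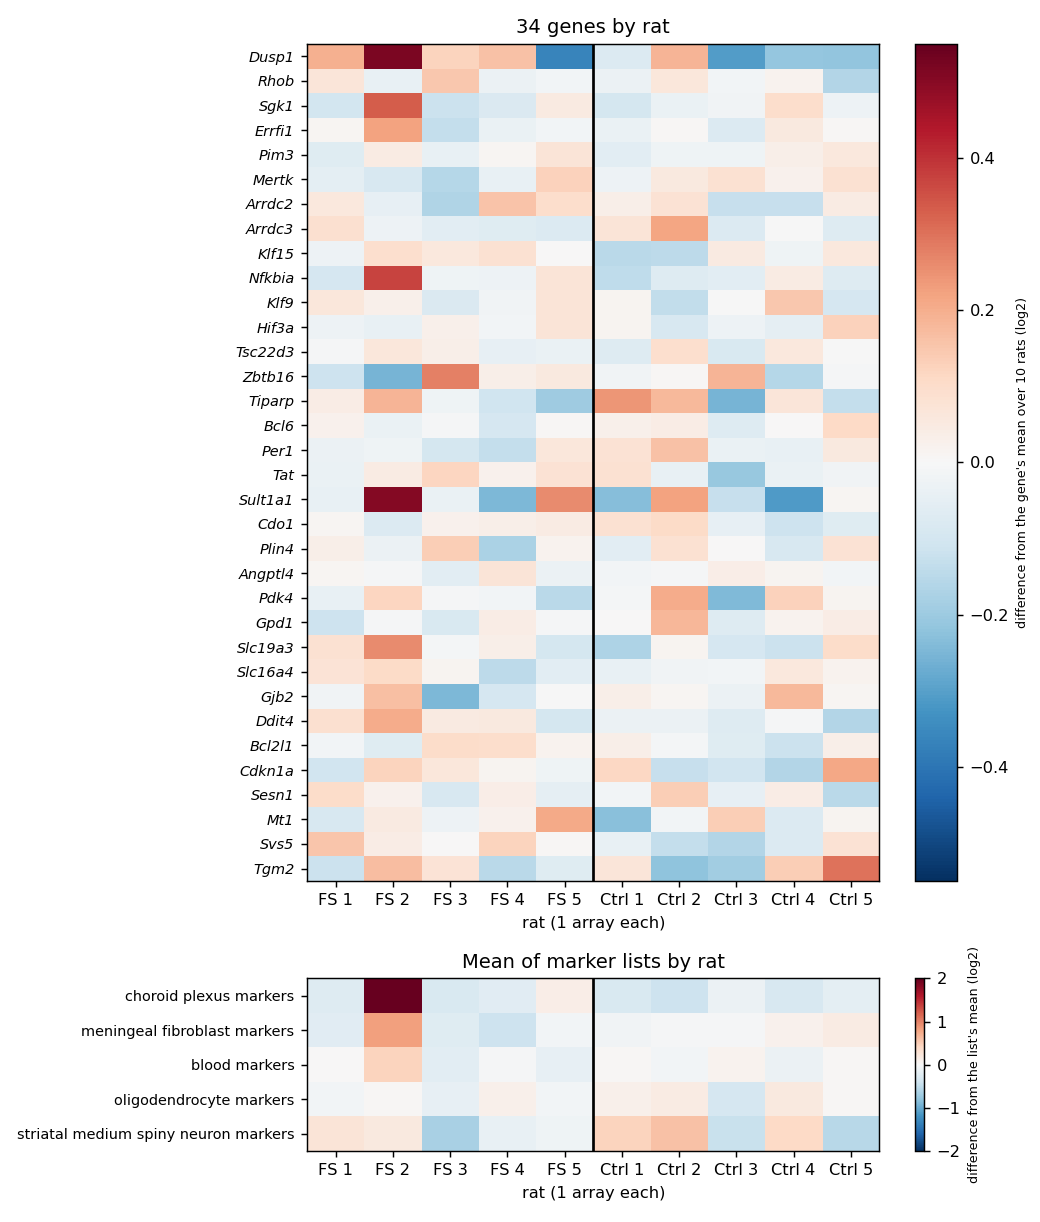
Difference of each gene from its mean over the 10 rats (upper panel, log2 scale, 1 row per gene and 1 column per rat, FS rats left of the line) and mean of 5 marker lists by rat, centred in the same way (lower panel, with a wider colour scale). FS replicate 2 has its strongest positive values in Dusp1, Sult1a1, Nfkbia and Sgk1 and in choroid plexus markers.

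**Figure D4:**
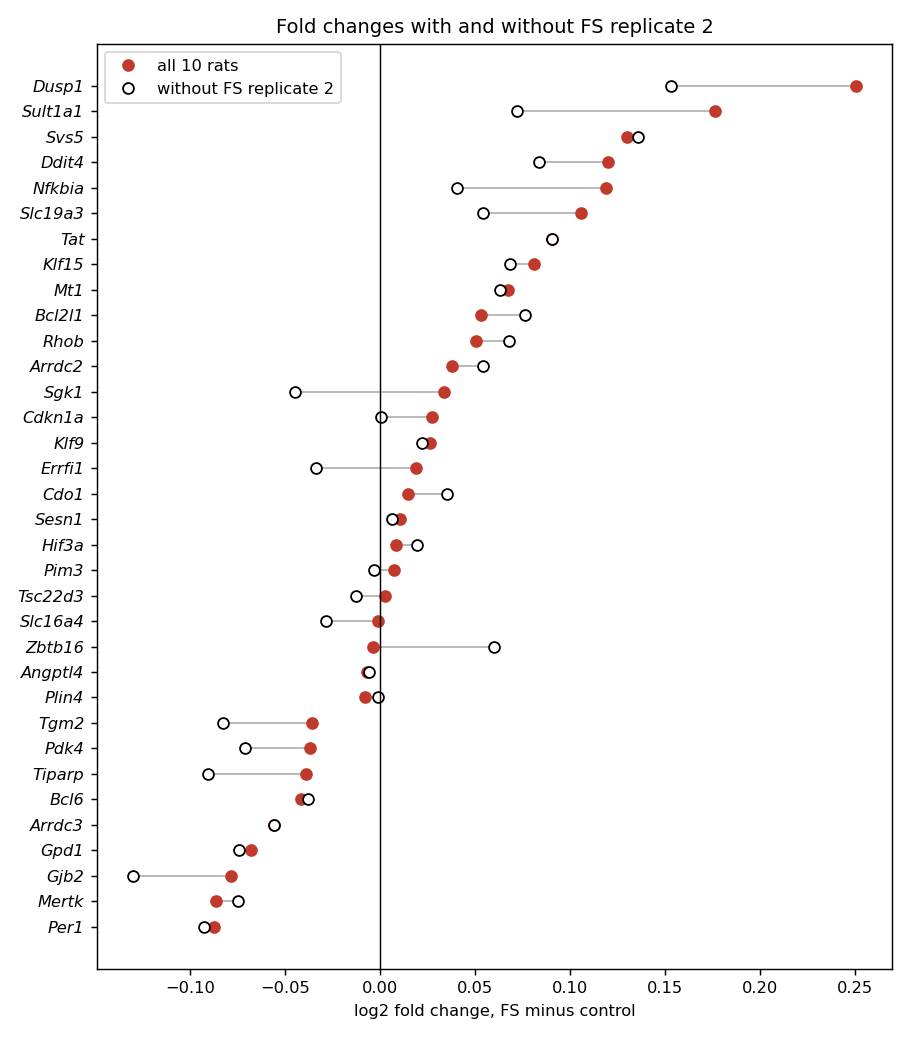
Log2 fold change (FS minus control, x axis) of the 34 genes with all 10 rats (filled) and without FS replicate 2 (open). Sgk1 goes to -0.045 and Nfkbia to 0.041 when this rat is left out, while Ddit4 stays positive at 0.083.

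Among controls, replicate 2 was the highest rat in 7 of the 34 genes (20.6%), against 9.41% of all genes tested. These were Tsc22d3, Pdk4, Gpd1, Per1, Arrdc3, Sesn1 and Cdo1. The mean level of striatal medium spiny neuron markers (9 of 10 tested) was 9.69 in control replicate 2, the highest of all rats, with FS rats between 8.46 and 9.36 and controls between 8.55 and 9.69. Oligodendrocyte markers (6 of 7 tested) lay between 10.56 and 10.82 in FS rats, against 10.38 and 10.92 in controls, with the lowest value in control replicate 3, in which Tsc22d3 and Pdk4 were lowest as well. The part of these cell types in the values was not tested.

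Across the rats, the median correlation between the 34 genes was near zero. With the group means removed, the median correlation over the 561 pairs of genes was 0.084, against 0.006 over all pairs of genes tested, and 11.2% of the pairs were over 0.5, against 10.4% of all pairs. An absolute r of 0.85 or more was seen in 7 of the 561 pairs. The share of all pairs of genes at that bound was not computed, so it is not known whether this count is particular to the list. Sgk1 and Nfkbia had r = 0.98 (0.93 without FS replicate 2), and Sgk1 and Errfi1 had r = 0.88, which was 0.55 without that rat. Errfi1 and Gjb2 had r = 0.93, while Zbtb16 ran opposite to both (r = -0.93 with Gjb2 and -0.91 with Errfi1), and these were 0.91, -0.88 and -0.94 without FS replicate 2. Sesn1 and Hif3a had r = -0.87, and the remaining pair was Tsc22d3 and Pdk4. These are descriptions over 10 rats, with pairs picked by their r, and the arrays share tissue content and scale. Among the 21 pairs of the genes called at 2 h, 14 correlations were positive and 7 negative. Pearson's r was largest for Tsc22d3 and Pdk4 (r = 0.88, Spearman's rho = 0.90), with p = 0.00243 and p = 0.00375 in exact permutation tests of the rats within groups, two-sided, and adjusted p = 0.0510 and 0.0788 over the 21 pairs, so that neither passed. Without control replicates 2 and 3, the rats farthest from the median of Tsc22d3, r was 0.81 (exact permutation p = 0.0181), and without FS replicate 2 it was 0.86. All other pairs had an adjusted p of 0.484 or more for Pearson's r (exact permutation tests). Sgk1 and Tsc22d3 had r = 0.40 (Spearman's rho = 0.22, exact permutation p = 0.164 and 0.479, adjusted p = 0.484 and 0.665), which was -0.14 without FS replicate 2 and control replicate 4.

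**Figure D5:**
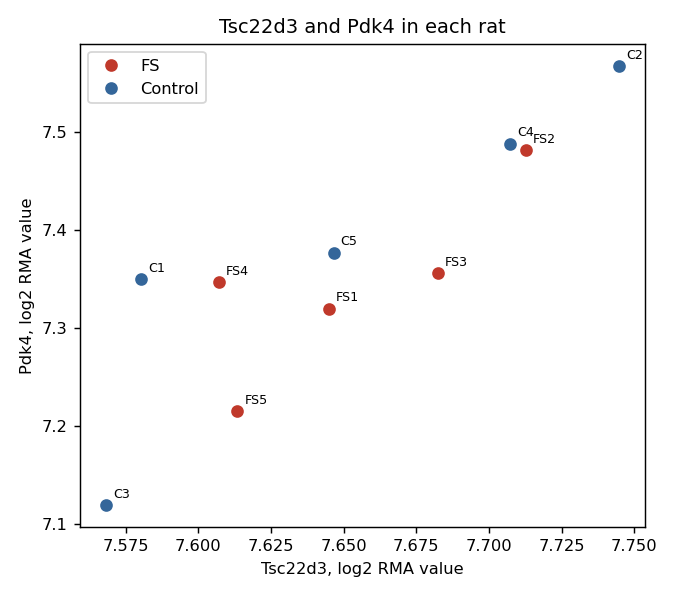
Log2 RMA values of Tsc22d3 (x axis) and Pdk4 (y axis) in each FS rat and each control, labelled by replicate. Control replicate 3 is lowest and control replicate 2 highest in both genes, and FS rats lie among the controls.

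The receptors and their partners were followed as a further list of 30 genes, of which 26 were tested. Of these, 8 were nominally above and 18 below the controls (30.8% above, against 50.5% of all genes). The median log2 fold change was -0.022, against 0.00070 over all genes. In limma 0 of the 26 genes passed, the smallest adjusted p being 0.516. At an unadjusted p under 0.05 there were 0, against 9.93% of all genes tested. Nr3c1 was at 9.81, 9.73, 9.80, 9.76 and 9.72 in FS rats, against 9.86, 9.99, 9.84, 9.78 and 9.73 in controls, so that 0 of 5 FS rats were above the mean of the controls while the groups overlapped (log2 fold change -0.074, 95% interval -0.18 to 0.029). Nr3c2 had a log2 fold change of -0.031 (95% interval -0.15 to 0.084). Fkbp5, a cochaperone that holds the glucocorticoid receptor in a state of low affinity and is itself induced by glucocorticoids, was at 8.17, 8.20, 8.01, 7.94 and 8.10 in FS rats, against 8.34, 8.34, 8.09, 8.43 and 8.01 in controls. All 5 FS rats were below the mean of the controls and control replicates 3 and 5 lay among them, with a log2 fold change of -0.16 (95% interval -0.33 to 0.019, adjusted p = 0.537 in limma). The highest moderated t values of the list belonged to Hsd11b2, which inactivates corticosterone (0.13), and Cebpb, a partner transcription factor (0.10), and the lowest to Bag1, a cochaperone (-0.098), and Ncoa2, a coactivator of the receptors (-0.087), with adjusted p between 0.516 and 0.571 in limma.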

How the data were processed

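PFC RNA of 5 FS rats and 5 controls was profiled with 1 array per rat, grouped and numbered as labelled. The deposited log2 values are the RMA summaries of the probe sets, which the authors made from the scans in oligo 1.58.0. RMA sets the probe distributions of the arrays equal, so a change shared by most genes would not be seen. No source used here gives a genome build for the deposited values, and the promoter coordinates above are those of GRCr8. The p-values measure the spread between these rats. Array data have no read depth, and the number of arrays limits the precision.

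Of 29214 probe sets, the platform annotation gives 1 symbol to 18644, several to 962 and none to 9608. All 34 genes were found with the same symbol in RefSeq (GRCr8). In limma 3.58.1 (R 4.3.3), FS rats were compared with controls over 18304 probe sets (a single symbol, mean over 4), with Benjamini–Hochberg adjustment over all of them, and shares of all genes refer to 1 probe set per gene. The functions were tested on simulated data. Correlations used exact permutation of the rats within groups (14400 orders). The genes and lists were chosen with earlier results of these data known. Each rat's value is given for the genes called at 2 h, the 6 genes with the highest and the 6 with the lowest moderated t, and Mt1, and those of Sult1a1 were added after its values were seen. With each gene's group means removed, the FS rat and the control of the same replicate number had a correlation over 0.1 for 2 of 5 numbers. The rats were treated as unpaired. Alternatives changed the filter, normalization, array weights, variance prior, probe sets, rats and block.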

Additional observations from a re-analysis of the deposited data

Results flagged for a closer look

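In the mean of the 34 genes, centred over the rats, FS replicate 2 was far from the other FS rats, at 0.086 against 0.00085 for the nearest of them. The same held for the mean of the 7 genes called at 2 h, at 0.12 against -0.018 for the nearest. Of 72 groups of 5 rats examined in this way (each of the 34 genes and both means, in FS rats and in controls), these 2 were the only ones past Dixon's critical value of 0.71, and chance alone takes about 1 in 20 such groups past it. The choroid plexus markers of this rat were at 8.91, against 6.59 to 7.04 in the other FS rats, and their part in the means was not tested.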

How the results depend on the processing

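The count of the 34 genes past an adjusted p of 0.05 in limma was 0 under each alternative run, and that of the receptor list too. The smallest adjusted p among the 34 genes was 0.178, without control replicate 5. The count of probe sets called was 0, and 0 to 1 when a rat was left out (1 without control replicate 2). That of the 34 genes at an unadjusted p under 0.05 was 2 in all rats. It was 1 with a mean above 6, where the low-level genes Svs5 and Tat were not tested. It was 1 with centred arrays, 1 with array weights and 4 with the replicate number as a block. These 4 were Svs5, Ddit4, Dusp1 and Sult1a1. With the block, Dusp1 had an unadjusted p of 0.0122 and Sult1a1 of 0.00483 in limma, against 0.0921 and 0.214 without it. Both had an adjusted p of 0.448 with the block. When a rat was left out the count was 0 to 5 (5 without FS replicate 5, 0 without FS replicates 1 or 4 or control replicate 3). The median correlation between the genes, 0.084, ranged from 0.029 (without control replicate 3) to 0.088 when a rat was left out, an alternative chosen after seeing the data, and was 0.051 without FS replicate 2. No call changed with the block. Each replicate number holds 1 FS rat and 1 control, so the block cannot change a log2 fold change or its direction.

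Of 34 genes, 18 kept their sign under each alternative run. With centred arrays, which moved the median of all genes to -0.021, the sign turned for Errfi1 (-0.0026), Pim3 (-0.014), Tsc22d3 (-0.019), Hif3a (-0.013), Cdo1 (-0.0069) and Sesn1 (-0.011), and the median of the 34 genes was -0.0090. With quantile normalization it turned for Tsc22d3 (-0.0096), Hif3a (-0.032) and Zbtb16 (0.010), and with array weights for Cdo1 (-0.0022), Slc16a4 (0.00086) and Sesn1 (-0.00024). Leaving out 1 rat turned the sign of these genes, given with their range of log2 fold changes: Angptl4 (-0.0258 to 0.0071), Cdkn1a (-0.00968 to 0.0836), Cdo1 (-0.0121 to 0.0432), Errfi1 (-0.0337 to 0.0544), Hif3a (-0.0127 to 0.0412), Klf9 (-0.00443 to 0.0663), Pdk4 (-0.102 to 0.01), Pim3 (-0.0088 to 0.0253), Plin4 (-0.0423 to 0.0346), Sesn1 (-0.0247 to 0.0459), Sgk1 (-0.045 to 0.0677), Slc16a4 (-0.0283 to 0.0344), Tgm2 (-0.0959 to 0.034), Tiparp (-0.108 to 0.0171), Tsc22d3 (-0.0177 to 0.0265), Zbtb16 (-0.0732 to 0.0597). The causes were not tested. With 5 rats a group, small differences can be missed. The printed 95% intervals are not adjusted for the number of probe sets tested. Those of Svs5 and Ddit4 lay above zero, with an adjusted p of 0.455 and 0.502 in limma.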
